A study of Mus musculus with 6 samples.

Results

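The collagen, laminin and Adamts genes were the matrix genes examined here in mouse liver RNA with and without hepatic *Tcf7l2*. Members were the rows of the gene count tables whose symbol starts with Col and a digit, with Lama, Lamb or Lamc and a digit, or with Adamts. They came to 80 of 23282 rows, of which 45 were Col rows, 11 were laminin rows and 24 were Adamts or Adamtsl rows. Of the 80 rows, 57 had 10 or more counts in at least 3 libraries (31 Col, 10 laminin and 16 Adamts), and 53 of these also passed the filter of the test across all genes (29, 10 and 14). One Col row is no collagen, since *Col4a3bp* is an older name of the gene for the ceramide transfer protein, and it was kept as the symbol rule takes it. Rows passed both filters on their counts in either group, so a gene seen in only 1 genotype had a chance to pass through that genotype alone. *Adamtsl1*, *Adamts5*, *Col19a1*, *Col4a4* and *Lama2* passed the filter of the test only with the knockout libraries, where they were higher. *Col6a6* passed it only with the wild-type libraries, where it was higher. The fold changes of these rows are a description, and the rows stay in the family counts and medians below.

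The knockout livers were from 3 *Alb-Cre;Tcf7l2 f/f* mice and the wild-type livers from 3 *Tcf7l2 f/f* littermates. All mice were 12 weeks old, of strain C57BL/6 in the labels and C57BL/6N in the study's methods, and were examined after a 24 h fast and 24 h of refeeding on normal chow. The albumin promoter drives Cre in hepatocytes, and Cre removes the floxed exon 5 of *Tcf7l2* there. Cells that do not express albumin, such as stellate and endothelial cells, keep the gene. Whether bile duct cells keep it was not read here. Wild-type mice carried the same floxed alleles without Cre. Whole liver was sequenced, and in such bulk RNA fewer cells of a type and less RNA per cell cannot be told apart. The libraries are labelled 7-2, 7-3 and 8-3 in knockout and 7-2, 8-1 and 8-3 in wild type, and values by library are given in that order. Each was taken as 1 mouse.

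Collagens are triple helices of alpha chains. Some build fibrils, some the sheet of the basement membrane, and others coat fibrils or span the cell membrane. Laminins are cross-shaped trimers of 1 alpha, 1 beta and 1 gamma chain that start basement membrane assembly at the cell surface. Adamts enzymes are secreted zinc proteases with thrombospondin repeats that trim procollagens, cleave proteoglycans or cut single proteins such as von Willebrand factor, and the Adamtsl proteins have the repeats without the protease. In the liver, stellate cells are the best known source of fibrillar collagen, and the sinusoids hold a loose matrix with little basement membrane. TCF7L2 is a DNA-binding partner of beta-catenin in Wnt signalling.

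Promoters are shown for 4 of the members that stood higher in every knockout library than in every wild-type library and that have an entry in the RefSeq promoter table of GRCm38.p6 (*Adamts1*, *Adamtsl2*, *Col6a3* and *Lamb1*). Each line is the sequence before the first base of the annotated gene, 5′ to 3′ on the gene's strand, with capitals at matches on either strand to 4 motifs. The TCF/LEF motif was searched as CTTTGNN with A or T at each N. The CCAAT box was searched by the letters of its name. The GC box was searched as GGGCGG. The TATA box was searched as TATAAA. In these stretches 0 matches overlapped each other. *Adamts1* is at chr16:85803114-85803363 on the minus strand, *Adamtsl2* at chr2:27079129-27079335 on the plus strand, *Col6a3* at chr1:90844002-90844221 on the minus strand and *Lamb1* at chr12:31265043-31265145 on the plus strand.
Adamts1: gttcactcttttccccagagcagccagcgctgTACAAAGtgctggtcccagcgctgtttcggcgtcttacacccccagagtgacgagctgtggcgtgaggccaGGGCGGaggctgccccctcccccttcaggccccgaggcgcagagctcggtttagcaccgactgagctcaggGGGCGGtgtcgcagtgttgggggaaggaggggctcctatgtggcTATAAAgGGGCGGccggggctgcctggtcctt
Adamtsl2: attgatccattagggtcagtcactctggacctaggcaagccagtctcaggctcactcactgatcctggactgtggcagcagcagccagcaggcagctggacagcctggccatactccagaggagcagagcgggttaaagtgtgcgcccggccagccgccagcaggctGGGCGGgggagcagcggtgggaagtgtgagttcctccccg
Col6a3: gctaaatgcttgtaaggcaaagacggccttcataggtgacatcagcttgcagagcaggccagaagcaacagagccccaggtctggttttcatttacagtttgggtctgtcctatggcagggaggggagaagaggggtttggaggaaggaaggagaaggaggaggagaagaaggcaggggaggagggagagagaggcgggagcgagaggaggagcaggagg
Lamb1: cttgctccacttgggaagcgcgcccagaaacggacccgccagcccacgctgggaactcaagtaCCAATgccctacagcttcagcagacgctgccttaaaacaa
The *Adamts1* stretch held 1 TCF/LEF match, whose first base lies at position -218 from the start site, with 3 GC boxes and 1 TATA box. The *Adamtsl2* stretch held 1 GC box, the *Lamb1* stretch held 1 CCAAT box, and the *Col6a3* stretch held none of these letters. The stretches end at the first base of the annotated gene and so differ in length (250 bases for *Adamts1*, 207 for *Adamtsl2*, 220 for *Col6a3* and 103 for *Lamb1*). Nearer to the start site of the promoter table, beyond the printed stretch, *Lamb1* has GC boxes at positions -84 and -75 and *Adamtsl2* has a TATA box at position -30. Promoter windows of 250 bases before and 50 bases after the start site were in the table for 55 of the 80 members, in 59 windows. A TCF/LEF match was in 8 of these 59 windows, and in 16.9% of all 32851 mouse windows of that length. It was in a window of *Adamts1*, *Col13a1*, *Col15a1*, *Col20a1*, *Col28a1*, *Col6a2*, *Col9a1* and *Col9a2*. *Col4a3bp* and *Col4a5* also stood higher in every knockout library and have an entry. Their promoters are not printed, and their windows held no TCF/LEF match. A GC box was in 39 of the 59 windows (35.7% of all windows), a CCAAT box in 17 (37.4%) and a TATA box in 7 (13.6%). A match is a run of letters and not a measured binding site. *Adamts7*, *Col14a1*, *Lamc1*, *Lama1* and *Lamc3* had no entry.

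The libraries held 60619938 to 68760956 counts in knockout and 67299258 to 133384586 counts in wild type. *Tcf7l2* stood at 3.31, 2.74 and 3.33 CPM (counts scaled to a common library size) in knockout livers, against 4.87, 6.13 and 6.85 CPM in wild-type livers, and every knockout library was below every wild-type library. It was lower by edgeR's log2 fold change of -0.93 ± 0.19 (SE), with an adjusted p of 0.0856 by edgeR and 0.00274 by DESeq2. The count is given per gene and not per exon, so exon 5 was not read apart. The 7 hepatocyte markers in the files summed to 46930 to 64782 CPM in knockout and 55131 to 62240 CPM in wild type, most of it *Alb*. edgeR called 0 of them. *Fgb*, a fibrinogen chain, was lower in every knockout library (log2 fold change -0.88 ± 0.29, SE, adjusted p-values of 0.233 by edgeR and 0.0107 by DESeq2). The *Mup* genes, which encode the major urinary proteins, took 18.5% to 28.7% of counts in knockout and 31.7% to 54.3% in wild type, with the highest share in the deepest library, wild type 8-1. The 80 members took 0.0768% to 0.118% of raw counts in knockout and 0.0446% to 0.0744% in wild type, and how far the *Mup* share sets these shares was not tested. CPM and fold changes below rest on TMM-scaled library sizes, which left the median of the 14076 genes tested at a log2 fold change of -0.02. With library sizes alone that median was 0.61, and edgeR called 2932 genes higher and 88 lower, against 10 higher and 53 lower with TMM. All p-values called adjusted are adjusted over all 14076 genes.

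*Adamts7* was higher in knockout liver, and it was the 1 member of 53 that edgeR called at an adjusted p under 0.05. Over all genes tested, edgeR called 0.0710% higher and 0.377% lower, and it called 0 members lower. At an unadjusted p under 0.05, 11 members were higher and 1 was lower, against 6.70% and 6.76% of all genes. DESeq2 called 2 members higher, *Adamts7* and *Col14a1*, and 0 lower, against 1.42% and 1.71% of all genes, and gave no adjusted p for 2 members. The knockout and wild-type libraries did not overlap for 12 members that were higher in knockout and 2 that were lower, against 10.2% and 9.08% of all genes. By family these were 4 higher and 1 lower of 29 Col rows, 4 higher and 0 lower of 10 laminin rows, and 4 higher and 1 lower of 14 Adamts rows. A difference between families was not tested.

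**Figure D1:**
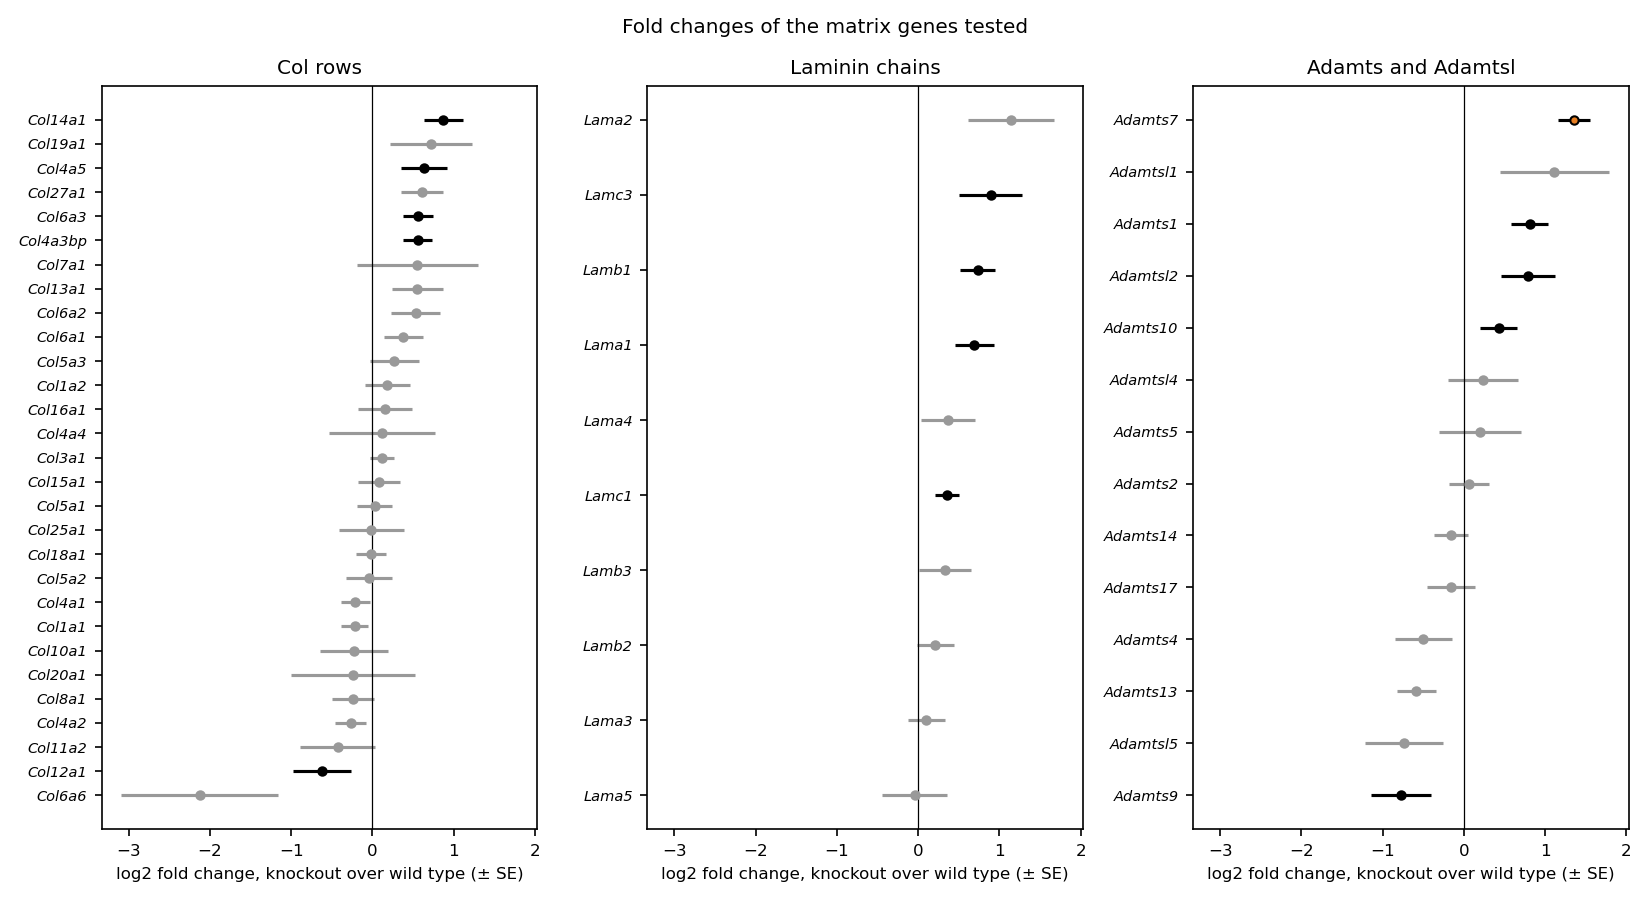
Log2 fold change of knockout over wild type (horizontal axis, points, with bars of ± 1 SE from edgeR) for the 53 members tested, in panels for Col rows, laminin chains and Adamts or Adamtsl genes. Black points are members whose 3 knockout and 3 wild-type libraries do not overlap, grey points are the others, and the orange centre marks *Adamts7* at 1.35, the member called by edgeR. Of the 10 laminin chains, 9 lie right of 0, against 17 of 29 Col rows and 8 of 14 Adamts rows. These counts include rows that passed the filter of the test through a single genotype.

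*Adamts7* encodes a protease that cleaves cartilage oligomeric matrix protein (chr9:90162904-90200102, plus strand, GRCm38.p6). It was counted 387, 296 and 332 times in knockout libraries and 96, 144 and 112 times in wild-type libraries. These are 4.57, 3.90 and 3.85 CPM in knockout livers, against 1.44, 1.72 and 1.65 CPM in wild-type livers. The lowest knockout library stood above 2 times the highest wild-type library, and each group was tight. The means were 4.11 ± 0.40 CPM in knockout and 1.60 ± 0.14 CPM in wild type (SD, n = 3 each), a log2 fold change of 1.35 ± 0.20 (SE) with an edgeR adjusted p of 0.0206 and a DESeq2 adjusted p of 1.41e-06. The fold held in size when any library was left out (1.27 to 1.42). The edgeR adjusted p was then 0.0444 without wild type 7-2, and was above 0.05 when any other library was left out, at 0.0955 without knockout 7-2, 0.0502 without knockout 7-3, 0.0658 without knockout 8-3, 0.0597 without the 8-1 wild-type library and 0.0796 without the 8-3 one.

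Among the proteases that cleave proteoglycans, *Adamts1* had the smallest p. It encodes an enzyme that cuts aggrecan and versican, and its promoter is the one shown with the TCF/LEF letters. It stood at 3.20, 3.73 and 2.94 CPM in knockout livers, against 1.81, 2.32 and 1.48 CPM in wild-type livers. The groups did not overlap, and the log2 fold change was 0.81 ± 0.23 (SE), with adjusted p-values of 0.180 by edgeR and 0.0523 by DESeq2. Its neighbour on chromosome 16, *Adamts5*, lies 55.0 kb away on the same strand and had 0.614, 0.566 and 0.487 CPM in knockout livers, against 0.858, 0.191 and 0.411 CPM in wild-type livers. The wild-type libraries of *Adamts5* lay on both sides of the knockout ones. *Adamts9*, another enzyme that cuts proteoglycans, had 0.295, 0.632 and 0.522 CPM in knockout livers, against 0.842, 0.693 and 0.940 CPM in wild-type livers. Here every knockout library was the lower one, with a log2 fold change of -0.77 ± 0.37 (SE) and an edgeR adjusted p of 0.401. A second counted gene, *9530026P05Rik*, overlaps the annotated span of *Adamts9*.

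*Adamts13* encodes the protease that cuts von Willebrand factor, and stellate cells are its known source in liver. It stood at 3.34, 4.64 and 2.91 CPM in knockout livers, against 5.37, 6.81 and 4.11 CPM in wild-type livers. Knockout 7-3 lay above wild type 8-3, so the groups overlapped. The log2 fold change was -0.58 ± 0.24 (SE), with an edgeR adjusted p of 0.339, and with library sizes alone it was 0.05, or -0.56 relative to the median of all genes. This was the 1 member with an unadjusted p under 0.05 that was lower in knockout.

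The procollagen N-propeptidases remove the amino-terminal propeptide of fibrillar procollagens, and their knockout and wild-type libraries overlapped. *Adamts14* had 2.53, 3.03 and 3.04 CPM in knockout livers, against 2.57, 3.37 and 3.63 CPM in wild-type livers. *Adamts2* had 1.74, 2.20 and 2.34 CPM in knockout livers, against 2.27, 2.22 and 1.53 CPM in wild-type livers. The log2 fold changes were -0.16 ± 0.21 for *Adamts14* and 0.06 ± 0.24 for *Adamts2* (SE), and that of *Adamts14* was 0.49 with library sizes alone, or -0.13 relative to the median of all genes. *Adamts3*, of the same class, met the count rule with 27 counts in each genotype and was not tested, nor was the proteoglycan-cleaving *Adamts15*, with 29 counts in knockout and 41 in wild type. *Adamts10*, an enzyme of fibrillin microfibrils, had 1.68, 1.91 and 1.71 CPM in knockout livers, against 1.20, 1.23 and 1.50 CPM in wild-type livers, which did not overlap (log2 fold change 0.43 ± 0.23, SE, edgeR adjusted p of 0.452).

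The Adamts-like proteins bind microfibrils and carry no protease. *Adamtsl2* stood at 1.49, 1.45 and 1.71 CPM in knockout livers, against 1.35, 0.705 and 0.632 CPM in wild-type livers. All knockout libraries were the higher ones, although wild type 7-2 came close. The log2 fold change was 0.79 ± 0.33 (SE), with an edgeR adjusted p of 0.342, and without wild type 7-2 it was 1.21. *Adamtsl5* spread most among knockout libraries, at 5.08, 0.869 and 2.56 CPM, against 5.37, 3.70 and 5.20 CPM in wild-type livers. Its log2 fold change of -0.74 ± 0.48 (SE) had an edgeR adjusted p of 0.525, and leaving out 1 library moved it between -1.46, without knockout 7-2, and -0.32, without knockout 7-3. *Adamtsl1* had a log2 fold change of 1.12 ± 0.67, *Adamtsl4* of 0.23 ± 0.43, *Adamts17* of -0.16 ± 0.29 and *Adamts4* of -0.50 ± 0.35 (SE), and the libraries of each overlapped between genotypes. *Adamtsl1* passed the filter of the test only with its knockout libraries (75 counts in knockout, 30 in wild type). The 8 Adamts rows tested that had neither a small p nor a high level per length ranged from -0.77 to 1.12, 5 of them above 0, with a lowest edgeR adjusted p of 0.401. Over the 14 Adamts rows tested, 8 were above 0 and the median was 0.13, which was -0.048 when the filter was 10 counts in 3 libraries. *Adamtsl1* and *Adamts5*, which passed the filter of the test only with their knockout libraries, are among these 8, so the count and median are a description.

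Of the 10 laminin chains, 9 had a log2 fold change above 0, with a median of 0.36, against 47.9% of all genes above 0 and their median of -0.02. These 9 include *Lama2*, which passed the filter of the test only with its knockout libraries. Both edgeR and DESeq2 called 0 of 10, and 4 had an unadjusted p under 0.05. With library sizes alone, edgeR called 5, and the median was 0.94, which is 0.33 above that of all genes. The summed laminin level was 26.8 to 27.9 CPM in knockout livers and 19.7 to 22.6 CPM in wild-type livers. These sums did not overlap, at means of 27.2 ± 0.58 CPM in knockout and 21.0 ± 1.52 CPM in wild type (SD, n = 3 each), and no p is given for a sum over chosen members.

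*Lamb1*, the beta1 chain found in many laminins, had 4.69, 3.41 and 4.15 CPM in knockout livers, against 2.62, 2.78 and 1.97 CPM in wild-type livers. The groups did not overlap. The log2 fold change was 0.73 ± 0.21 (SE), with adjusted p-values of 0.190 by edgeR and 0.0698 by DESeq2. *Lamc1*, the gamma1 chain that nearly all laminins share, had 8.98, 9.55 and 8.88 CPM in knockout livers, against 8.06, 6.69 and 6.74 CPM in wild-type livers. Its groups also did not overlap, at a log2 fold change of 0.35 ± 0.15 (SE) and an edgeR adjusted p of 0.347.

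*Lama1*, the alpha1 chain best known from early development, had 1.50, 1.46 and 1.73 CPM in knockout livers, against 0.933, 0.955 and 1.01 CPM in wild-type livers. *Lamc3*, the gamma3 chain, was sparse, with 0.555, 0.685 and 0.429 CPM in knockout livers, against 0.226, 0.370 and 0.294 CPM in wild-type livers. For both chains every knockout library was above every wild-type library. The log2 fold change was 0.69 ± 0.24 for *Lama1* and 0.89 ± 0.39 for *Lamc3* (SE), with edgeR adjusted p-values of 0.261 and 0.359. *Lamb2*, the beta2 chain known from the kidney filter and the nerve-muscle junction, had 2.49, 2.42 and 2.29 CPM in knockout livers, against 2.66, 1.73 and 1.82 CPM in wild-type livers. Wild type 7-2 was the highest of the 6 libraries, and the groups overlapped.

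The other 5 laminin chains ranged from -0.04 to 1.14 in log2 fold change. The top of this range was *Lama2*, the alpha2 chain known from muscle, with 0.756, 0.737 and 0.348 CPM in knockout livers, against 0.466, 0.251 and 0.118 CPM in wild-type livers. Knockout 8-3 lay below wild type 7-2, and the edgeR adjusted p was 0.388. *Lama2* passed the filter of the test only with its knockout libraries. The bottom was *Lama5*, the alpha5 chain of most adult basement membranes, whose groups overlapped widely. Between them, *Lama3* had 0.10 ± 0.23, *Lama4* had 0.37 ± 0.33 and *Lamb3* had 0.33 ± 0.32 (log2 fold change, SE), each with groups that overlapped.

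**Figure D2:**
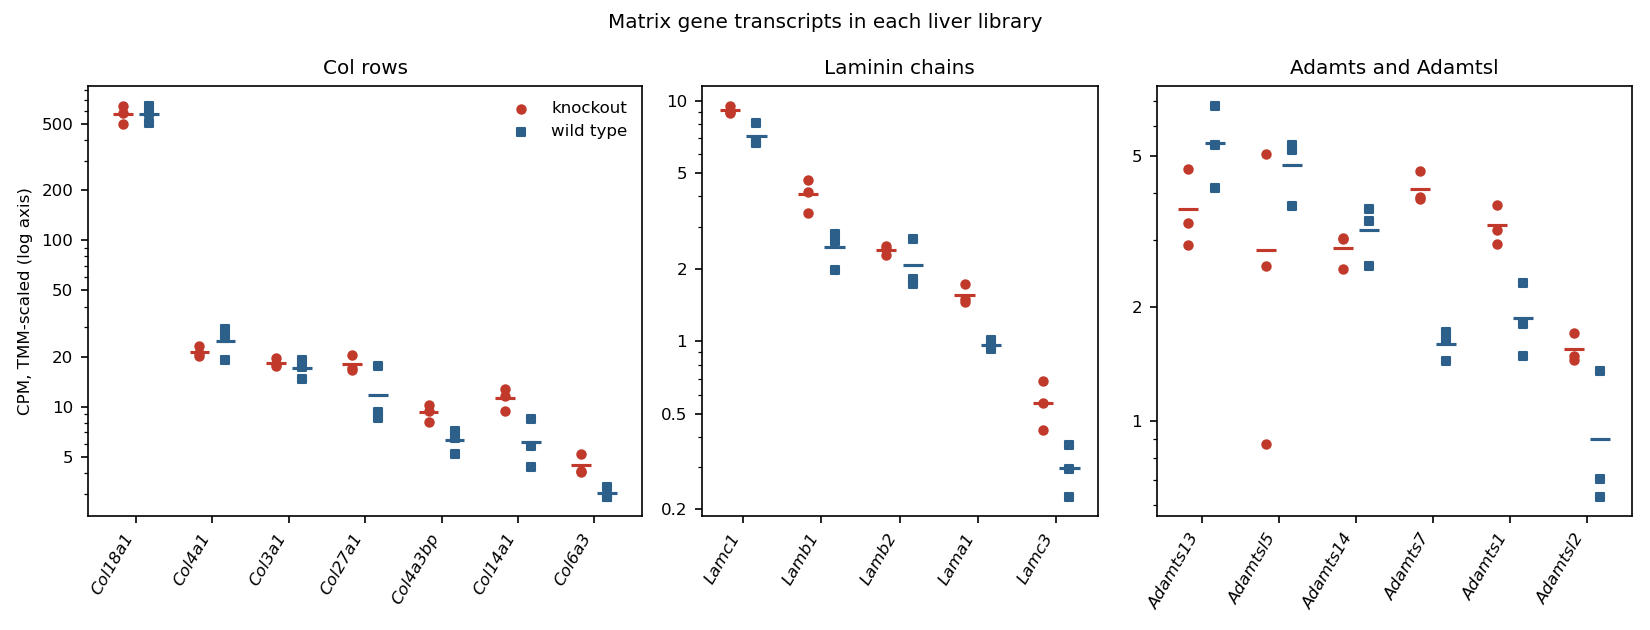
Level by library of the members called by edgeR or DESeq2, the 4 with the smallest p and the 3 with the highest level per kilobase in each family. Further members given by library in the text are not drawn. TMM-scaled CPM is on a log axis. Knockout (red circles) is left of wild type (blue squares), with 1 point per library and a bar at the mean of 3. *Adamts7* at 3.85 to 4.57 CPM in knockout is clear of 1.44 to 1.72 CPM in wild type, while *Col18a1* near the top overlaps fully and *Adamtsl5* has 1 knockout library at 0.869 CPM.

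Of the 29 Col rows tested, 17 had a log2 fold change above 0, with a median of 0.12 that ran from 0.034, without knockout 7-2, to 0.15, without wild type 7-2. These 17 include *Col19a1* and *Col4a4*, which passed the filter of the test only with their knockout libraries. *Col6a6*, below 0, passed it only with its wild-type libraries. edgeR called 0 of 29, and 4 had an unadjusted p under 0.05, all higher in knockout. DESeq2 called 1, *Col14a1*, which encodes a collagen that sits on fibril surfaces (chr15:55307644-55520803, plus strand). It stood at 11.7, 9.47 and 12.8 CPM in knockout livers, against 8.38, 5.77 and 4.33 CPM in wild-type livers. The groups did not overlap, with knockout 7-3 not far above wild type 7-2. The log2 fold change was 0.87 ± 0.24 (SE), with adjusted p-values of 0.165 by edgeR and 0.0240 by DESeq2, and leaving out 1 library moved it between 0.67 (wild type 8-3 left out) and 1.16 (wild type 7-2 left out).

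Among the other collagens of fibril surfaces, *Col12a1* had 0.484, 0.290 and 0.487 CPM in knockout livers, against 0.707, 0.573 and 0.661 CPM in wild-type livers. Each knockout library was below each wild-type library, with a log2 fold change of -0.62 ± 0.36 (SE) and an edgeR adjusted p of 0.482. *Col16a1*, *Col19a1* and *Col20a1* had groups that overlapped.

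Among the main fibril collagens, *Col3a1*, the chain of type III collagen, had 19.5, 17.7 and 18.1 CPM in knockout livers, against 19.1, 14.6 and 17.4 CPM in wild-type livers. Those libraries overlapped, at a log2 fold change of 0.12 ± 0.15 (SE). *Col1a1* and *Col1a2*, the chains of type I collagen, had log2 fold changes of -0.22 ± 0.17 and 0.18 ± 0.27 (SE). Their libraries overlapped, at 4.37, 5.53 and 4.44 CPM of *Col1a1* in knockout livers, against 6.02, 5.16 and 5.51 CPM in wild-type livers. Of 8 ratios between chains of the same family, per kilobase of transcript, 1 had groups that did not overlap. That ratio sets a chain of type III collagen against a chain of type I collagen, which are not partners in 1 molecule. The ratio of *Col3a1* to *Col1a1* was 4.77, 3.40 and 4.33 in knockout livers, against 3.38, 3.01 and 3.36 in wild-type livers, and knockout 7-3 was only just above wild type 7-2. The ratio of *Col1a1* to *Col1a2* was 0.906, 0.836 and 0.853 in knockout livers, against 0.833, 1.37 and 1.51 in wild-type livers, and wild type 7-2 was the lowest of all.

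*Col27a1*, a fibril-forming collagen known from cartilage, had 17.1, 16.7 and 20.4 CPM in knockout livers, against 8.55, 17.6 and 9.33 CPM in wild-type livers. Wild type 8-1, the library with the highest *Mup* share, stood with the knockout libraries and above 2 of them. The log2 fold change was 0.61 ± 0.26 (SE), with an edgeR adjusted p of 0.344, and without wild type 8-1 it was 1.02 with an adjusted p of 0.0646. Whether the make-up of that library plays a part was not tested. *Col5a3*, a minor fibril chain, showed the same high wild-type library, with 11.8, 8.90 and 14.8 CPM in knockout livers, against 8.12, 14.9 and 6.29 CPM in wild-type livers.

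Type VI collagen forms beaded filaments from 3 chains. *Col6a3* stood at 4.03, 5.21 and 4.13 CPM in knockout livers, against 2.87, 2.88 and 3.29 CPM in wild-type livers. The groups did not overlap, at a log2 fold change of 0.56 ± 0.19 (SE) and adjusted p-values of 0.241 by edgeR and 0.158 by DESeq2. Its partners *Col6a1* and *Col6a2* had log2 fold changes of 0.38 ± 0.24 and 0.53 ± 0.30 (SE), and their groups overlapped. *Col6a6*, a rarer alpha chain, had the lowest fold change of all members (-2.12 ± 0.96, SE, edgeR adjusted p of 0.376). It rested on 33 counts in all of knockout and 134 in all of wild type, with 0.307, 0 and 0.0812 CPM in knockout livers, against 0.166, 1.12 and 0.426 CPM in wild-type livers, and the groups overlapped.

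The basement membrane chains of type IV collagen differed in sign, and 0 of the 4 tested were called or had an unadjusted p under 0.05. *Col4a1* had 20.2, 23.1 and 21.0 CPM in knockout livers, against 19.1, 29.4 and 25.8 CPM in wild-type livers, with a log2 fold change of -0.21 ± 0.17 (SE) that was 0.45 with library sizes alone, or -0.16 relative to the median of all genes. Leaving out 1 library moved it between -0.36 (wild type 7-2 left out) and -0.06 (wild type 8-1 left out). *Col4a2*, its partner in the common network, had a log2 fold change of -0.27 ± 0.19 (SE). The 2 genes lie head to head on chromosome 8 on opposite strands with 85 annotated bases in common, and for strand use in the counting the sources used here give nothing. The X-linked *Col4a5* had 1.43, 1.04 and 1.06 CPM in knockout livers, against 0.797, 0.657 and 0.823 CPM in wild-type livers. Its groups did not overlap, with a log2 fold change of 0.63 ± 0.28 (SE) and an edgeR adjusted p of 0.373. *Col4a3* met the count rule with 41 counts in knockout and 66 in wild type, 47 of which came from wild type 7-2, and was not tested.

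*Col18a1*, a basement membrane collagen made by hepatocytes whose end is released as endostatin, carried most of the collagen counts. It had 638, 497 and 580 CPM in knockout livers, against 579, 510 and 645 CPM in wild-type livers. The groups overlapped fully, at a log2 fold change of -0.02 ± 0.19 (SE), whose sign changed with the scaling and with the library left out. It made up 77.5% to 80.7% of all Col row CPM in knockout libraries and 76.8% to 83.0% in wild-type libraries. Per kilobase of transcript it stood at 102.2 CPM in knockout and 103.3 CPM in wild type, 29.5 times *Col4a1*, the next collagen by this measure, over all 6 libraries. *Col15a1*, the other collagen of its class, had a log2 fold change of 0.08 ± 0.26 (SE), with groups that overlapped. Without *Col18a1*, the Col rows summed to 144 to 161 CPM in knockout livers and 126 to 154 CPM in wild-type livers, which overlapped.

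*Col4a3bp*, which moves ceramide between membranes, had 8.09, 9.42 and 10.2 CPM in knockout livers, against 6.51, 7.15 and 5.19 CPM in wild-type livers. The groups did not overlap, and the log2 fold change was 0.56 ± 0.17 (SE), with an edgeR adjusted p of 0.216. Without this row, 3 collagens and not 4 had an unadjusted p under 0.05. The membrane-spanning *Col13a1* and *Col25a1* had log2 fold changes of 0.55 ± 0.31 and -0.01 ± 0.40 (SE), and the network and anchoring collagens *Col7a1*, *Col8a1* and *Col10a1* had 0.56 ± 0.75, -0.24 ± 0.26 and -0.23 ± 0.42 (SE), all with groups that overlapped. *Col8a2* met the count rule with 34 counts in knockout and 26 in wild type and was not tested. The 22 Col rows tested that had neither a small p nor a high level per length ranged from -2.12 to 0.72, 12 of them above 0, with a lowest edgeR adjusted p of 0.373. Both ends of this range, *Col6a6* and *Col19a1*, passed the filter of the test through a single genotype.

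**Figure D3:**
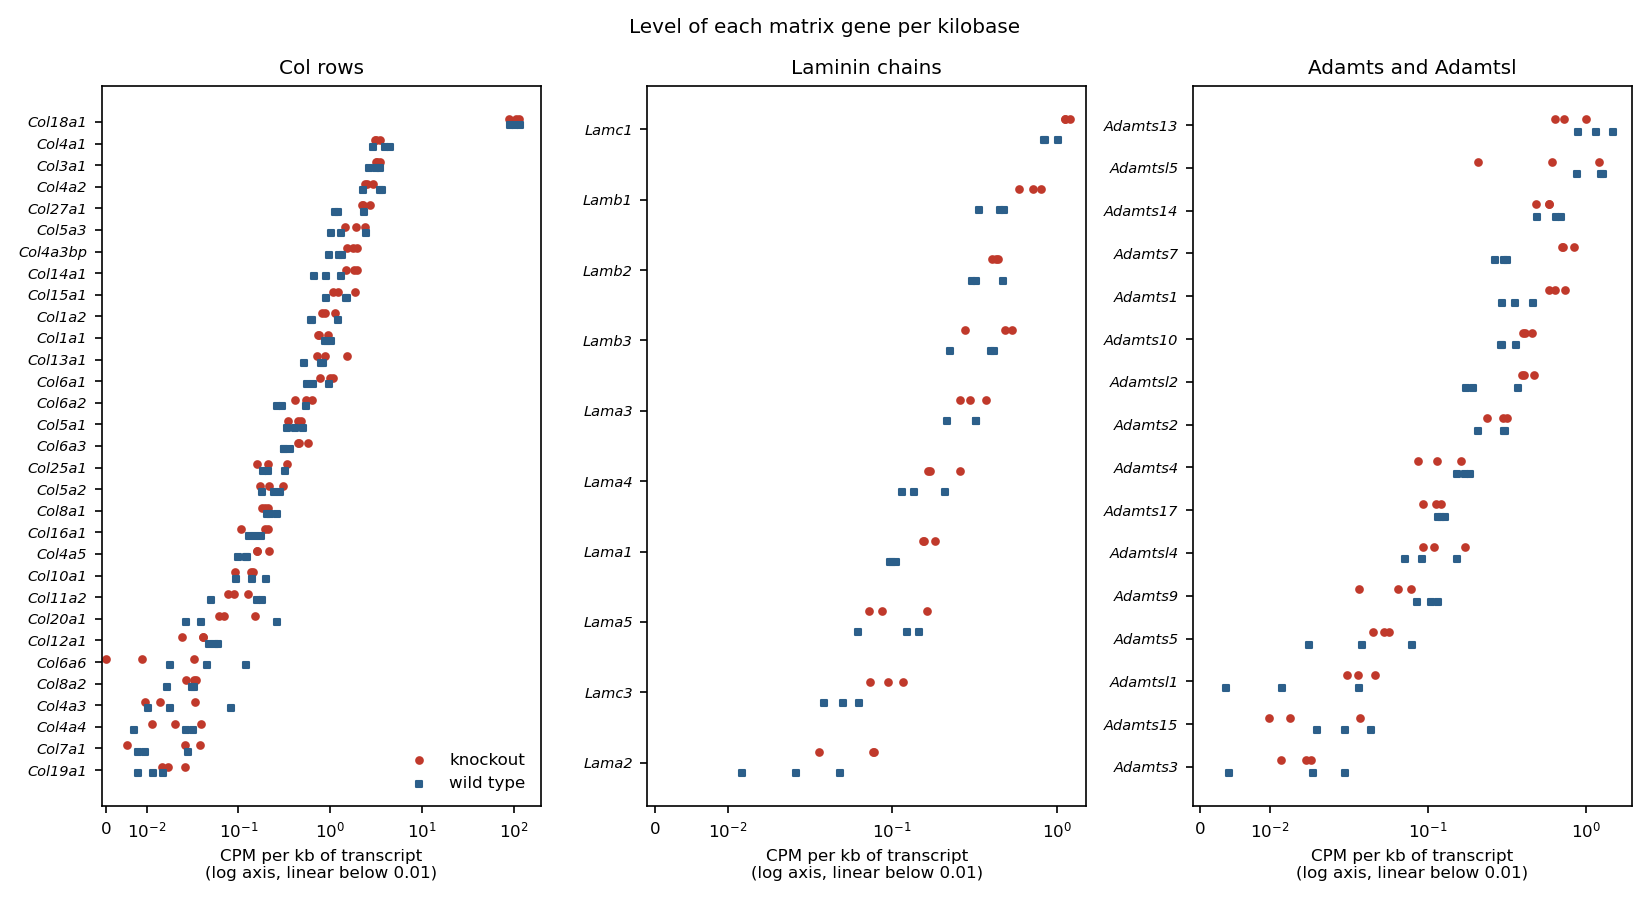
Level of the 57 members that met the count rule, in TMM-scaled CPM per kilobase of transcript (horizontal log axis, linear below 0.01), 1 point per library, knockout as red circles above wild type as blue squares. *Col18a1* stands alone at 102.2 in knockout and 103.3 in wild type, and the next collagen, *Col4a1*, is at 3.24 in knockout and 3.74 in wild type.

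Ordered by mean CPM per kilobase over the 6 libraries, the laminin chains ran from *Lamc1* at 1.03, *Lamb1* at 0.564 and *Lamb2* at 0.397 down to *Lama2* at 0.0461. Among Adamts genes, *Adamts13* stood at 0.989, *Adamtsl5* at 0.911, *Adamts14* at 0.582 and *Adamts7* at 0.525. *Adamts7* changed place between genotypes. Among Adamts genes in knockout livers its 0.755 CPM per kilobase came after only *Adamts13*, at 0.792, and the libraries of these genes overlapped. In wild-type livers it stood at 0.295 CPM per kilobase, after *Adamts13*, *Adamtsl5*, *Adamts14*, *Adamts1* and *Adamts10*, and the last of these was at 0.315. Summed over the family, Adamts CPM was 24.4 to 26.7 in knockout livers and 23.6 to 26.0 in wild-type livers, which overlapped.

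The 23 members below the count rule were 14 Col rows, 1 laminin row and 8 Adamts rows, and 4 of them (*Adamts18*, *Adamts19*, *Col26a1* and *Col9a1*) had 0 counts in every library. The cartilage collagens *Col2a1* and *Col11a1* had 2 and 3 counts in all. Just inside the rule were *Col7a1*, *Col8a2*, *Col4a3*, *Adamts3* and *Adamts15*, with 10 or more counts in exactly 3 libraries, and just outside were *Col24a1* and *Adamts6*, with 2.

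Marker lists of the cells that make matrix were read beside these values. Of 19 stellate cell markers tested, 16 were above 0, with a median log2 fold change of 0.57, and 10 had groups apart and higher in knockout and 1 lower. Over all genes tested, 47.9% were above 0, 10.2% had groups apart and higher in knockout, and 9.08% had groups apart and lower. Their summed level was 139 to 143 CPM in knockout livers and 97.9 to 119 CPM in wild-type livers, and 0 of the 20 markers in the list were at 0 counts. *Dcn*, a small proteoglycan, had 28.9, 36.5 and 28.3 CPM in knockout livers, against 17.5, 18.9 and 11.1 CPM in wild-type livers (log2 fold change 0.98 ± 0.21, SE, adjusted p-values of 0.0927 by edgeR and 0.00166 by DESeq2). *Reln* had a log2 fold change of 0.90 ± 0.21 (SE) and an edgeR adjusted p of 0.114. edgeR called 0 of these markers and DESeq2 called 5 higher and 1 lower. The unadjusted edgeR p was under 0.05 for 11 that were higher and 1 that was lower. Over all genes, DESeq2 called 1.42% higher and 1.71% lower, and 6.70% and 6.76% had an unadjusted edgeR p under 0.05. The shares of all genes in this paragraph hold for the lists below as well.

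All 15 sinusoidal endothelial markers were above 0, with a median of 0.28, 5 of them with groups apart, and a summed level of 146 to 156 CPM in knockout livers against 121 to 126 CPM in wild-type livers. edgeR called 0 of them (3 at an unadjusted p under 0.05, all higher) and DESeq2 called 1. *Mrc1*, a scavenger receptor, led this list at 0.64 ± 0.15 (SE), with adjusted p-values of 0.132 by edgeR and 0.0257 by DESeq2. The part of either cell type in the levels of *Col14a1*, *Col6a3*, *Adamts1* and the laminin chains was not tested. The medians of the other non-hepatocyte lists were below 0. The median was -0.43 for cholangiocytes (59.9 to 65.8 CPM summed in knockout, 67.8 to 95.7 CPM in wild type), -0.23 for portal fibroblasts, smooth muscle and mesothelium, -0.22 for Kupffer cells and -0.14 for vein and artery endothelium. edgeR called 0 in these 4 lists, with 2 cholangiocyte markers and 1 marker in each of the other 3 lower where the unadjusted p was under 0.05, and 1 gene (*Acta2*) called by DESeq2. *Acta2*, the actin of smooth muscle and activated stellate cells, had 3.12, 3.20 and 2.59 CPM in knockout livers, against 5.36, 3.85 and 5.77 CPM in wild-type livers. Every knockout library of *Acta2* was the lower one (log2 fold change -0.75 ± 0.21, SE, adjusted p-values of 0.167 by edgeR and 0.0498 by DESeq2).

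**Figure D4:**
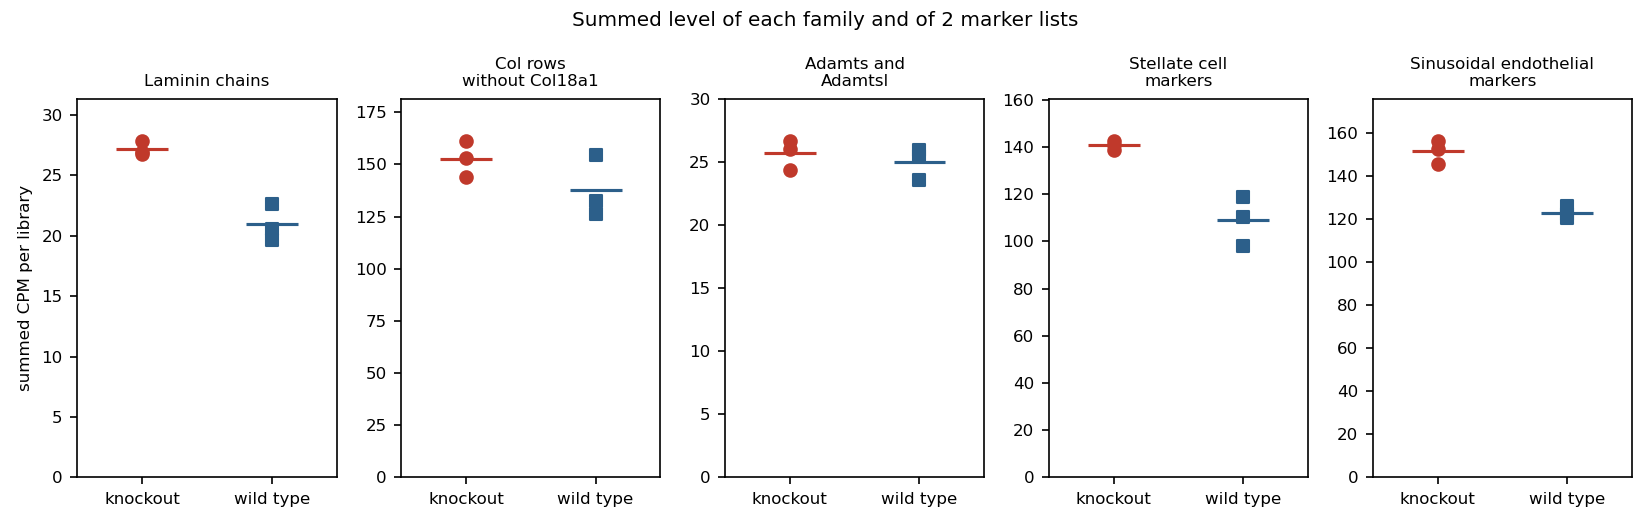
Summed TMM-scaled CPM per library (vertical axis from 0) of the laminin chains, the Col rows without *Col18a1*, the Adamts and Adamtsl rows, and the stellate and sinusoidal endothelial marker lists, with knockout left of wild type, 1 point per library and a bar at the mean of 3. The laminin sums (26.8 to 27.9 in knockout, 19.7 to 22.6 in wild type) and both marker sums are apart, and the other sums overlap.

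Among the partners of these matrix genes, edgeR called 0 in each list. Enzymes and chaperones of collagen synthesis and crosslinking had 10 of 22 above 0, with a median of -0.08, and at an unadjusted p under 0.05 there was 1 higher and 1 lower (DESeq2 called 1 higher). In that list *P4ha1*, the catalytic chain of collagen prolyl hydroxylase, was at 0.90 ± 0.26 (SE), with an edgeR adjusted p of 0.189 and a DESeq2 adjusted p of 0.0308, and *Loxl2*, a crosslinking oxidase, was at -0.57 ± 0.19 (SE) with an edgeR adjusted p of 0.248. Receptors of collagen and laminin had 7 of 12 above 0 (median 0.15), with 3 higher at an unadjusted p under 0.05 and 0 called by DESeq2. *Itga1*, a collagen-binding integrin chain, was at 0.41 ± 0.15 and *Dag1*, the laminin receptor dystroglycan, at 0.38 ± 0.15 (SE). Basement membrane partners had 9 of 11 above 0 (median 0.12, 0 at an unadjusted p under 0.05), and proteoglycans and elastic fibre partners 12 of 18 (median 0.20, 2 higher at that p), with 0 called by DESeq2 in both.

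Genes of matrix degradation had 8 of 14 above 0 (median 0.18), 3 higher at an unadjusted p under 0.05 and 0 called by DESeq2, with the protease inhibitors *Timp2* at 0.67 ± 0.21 and *Timp3* at 0.35 ± 0.14 (SE), both with groups apart and edgeR adjusted p-values of 0.223 and 0.311. *Timp4* had 0 counts. Genes of fibrogenic signalling had 13 of 19 above 0 (median 0.15), with 0 called by DESeq2 and an unadjusted edgeR p under 0.05 for 4 that were higher and 1 that was lower. Among them *Cyr61*, a matricellular protein, was at 0.82 ± 0.25 (SE) with an edgeR adjusted p of 0.199. *Pdgfd*, a growth factor and another of these 4, was sparse and passed the filter on low counts only through the knockout libraries. Its place among the 4 and its values are therefore a description. It had 0.201, 0.435 and 0.232 CPM in knockout livers, against 0.0903, 0.0358 and 0.0294 CPM in wild-type livers.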

How the data were processed

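RNA was measured in 6 livers, 3 knockout and 3 wild type, grouped by the labels' genotype. The authors deposited raw counts per gene, made with Bedtools on mm10 from unique and multiple alignments. TopHat stands in the submitters' processing notes. Aligner version and annotation: not given in the sources used here. These counts do not carry the quantile normalisation of the study's methods. From the counts, edgeR 4.0.16 with limma 3.58.1 in R 4.3.3 gave a quasi-likelihood test with TMM factors and filterByExpr (min.count 10, min.total.count 15) over 14076 genes, with Benjamini-Hochberg adjustment and calls under 0.05. SE is the fold change divided by the square root of F. The biological coefficient of variation was 23.9%. The tests were tested on simulated data. Library totals were 60619938 to 133384586 counts. Each library was taken as 1 mouse, and the p-values measure the spread between these samples.

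Alternatives were DESeq2 1.42.0, RLE factors, library sizes alone, TMM without *Mup* genes, quantile-normalised counts with limma, other filters, replicate blocks and each library left out. Positions and promoters are from RefSeq GRCm38.p6, matched by accession for all 80 members, and transcript lengths are from GENCODE. Members and lists were chosen with earlier results of these data known. Values by library are given for members called by edgeR or DESeq2, the 4 with the smallest p and the 3 with the highest level per kilobase in each family, and the list genes named are the 2 with the smallest p. The further members given by library were picked with their values known. Some items that the rules take are not reported here.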

Additional observations from a re-analysis of the deposited data

How the results depend on the processing

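With library sizes alone, which moved the median of all genes to 0.61, edgeR called 3020 genes, 9 Col rows, 5 laminin chains, 4 Adamts rows and 49 genes of the partner and marker lists, and *Adamts13* (0.054), *Adamts14* (0.49), *Col4a1* (0.45) and *Col18a1* (0.61) changed sign. DESeq2 called 440 genes, 1 Col row and 10 list genes, against 63, 0 and 0 by edgeR. Without a filter on low counts 96 genes were called. *Col18a1* also changed sign with quantile-normalised counts (0.091). With a library left out, *Col18a1* ran from -0.10 to 0.075, and edgeR called 24 genes (without wild type 8-1) to 87 (without wild type 7-2), 0 Col rows, 0 laminin chains, 0 to 1 Adamts rows and 0 to 1 list genes. The family medians then ran from 0.034 to 0.15 for Col rows, from 0.28 to 0.55 for laminin chains and from -0.11 to 0.14 for Adamts rows, and the last was -0.048 with a filter of 10 counts in 3 libraries. Why these values changed was not tested beyond the scaling itself.

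With a replicate block, edgeR called 0 Adamts rows, with *Adamts7* at 1.44 (adjusted p of 0.174) on the full label number and at 1.37 (0.0611) on the leading number, where 39 genes were called in all. The block on the full number put the Col row median at 0.27. Deviations of the libraries that share a number correlated at 0.044 for 7-2 and -0.016 for 8-3. Pairs with unlike numbers ran from -0.182 to 0.174. The labels do not say what the numbers stand for, and a shared origin of such libraries was not tested. Within the leading numbers, *Adamts7* was higher in knockout by 1.55 for 7 and 1.20 for 8 on the log2 scale. Over the other scalings and filters, DESeq2 apart, its adjusted p was 0.000366 to 0.021. Members with under 1 CPM rest on few counts, and with 3 mice a group a p above the threshold does not show equal levels.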
